A study of Homo sapiens with 6 samples.

Results

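The genes of the proteasome, the protease complex that degrades proteins marked with ubiquitin, were followed in RNA bound to tagged ribosomes. They were chosen by symbol, as the genes named PSMA to PSMG with a number, together with POMP. The rule used no measured value and found 47 of the 16834 genes in the table. They comprised 7 PSMA and 10 PSMB genes of the 20S core, 6 PSMC genes for the ATPases of the 19S particle, 14 PSMD genes classed with its non-ATPases, and 10 activators or chaperones (PSME1 to PSME4, PSMF1, PSMG1 to PSMG4 and POMP). The PSMD genes include the assembly chaperones PSMD5, PSMD9 and PSMD10, and the 20 PSMC and PSMD genes together are called the 19S particle here. ADRM1 and SEM1 do not match the rule and are taken up in a list below. The testis form PSMA8 and the thymus form PSMB11 were not analysed here.

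The data were 6 RNA-seq libraries from HEK-293T cells, a human embryonic kidney line, 3 from Flag-IPs and 3 from HA-IPs (immunoprecipitations with an antibody to the respective tag). All 6 came from 1 stable Flp-In line that carries a single copy of ccTaggedRP, in which a CAG promoter drives 1 bicistronic mRNA for 2 tagged copies of mouse RPL10a, a protein of the large ribosomal subunit. Flag-RPL10a-hCdt carries the degron of CDT1 and was designed to be present from G1 into S. HA-RPL10a-hGem carries the degron of geminin and was designed to be present from S into G2/M. The cells of both groups cycled asynchronously. In the paper's staining of this line most cells held Flag-RPL10a-hCdt alone, and others held both tagged proteins or HA-RPL10a-hGem alone. Each IP was made from such a mixed culture, and neither unbound RNA nor a mock IP was analysed here. The labels and methods do not say whether replicates came from separate cultures, so the p-values measure the spread between these libraries. The comparison asks which mRNAs were bound more in one IP than in the other. In bulk RNA, fewer cells of a kind and less RNA per cell cannot be told apart.

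The libraries held 23174532 to 44134833 reads on listed genes in the 5 in which whole reads were recovered, and the deposited normalized counts summed to between 30011659 and 31688730 per library. The epithelial genes EPCAM, CDH1, KRT8, KRT18 and KRT19, picked after the data had been seen, lay between 602 and 11240 normalized counts in every library. All 5 had a log2 fold change above 0 (0.10 to 0.34, more in the HA-IPs), and EPCAM (0.34, adjusted p = 0.0029 in limma) and CDH1 (0.29, adjusted p = 0.017 in limma) passed the test used for all genes. Markers of heart muscle, a tissue that the labels do not name, went the other way. Of 50 such markers 38 were listed, and their share of all normalized counts was 0.906%, 0.688% and 0.494% in Flag-IP replicates 1, 2 and 3 against 0.153%, 0.146% and 0.207% in the HA-IPs. Among the 38, 34 passed the same test with more in the Flag-IPs and 1 (MYOM2) with more in the HA-IPs, at a median log2 fold change of -3.54. The markers at 0 were 3 in HA-IP replicate 1 (TRIM63, CSRP3 and TBX5) and 2 in HA-IP replicate 2 (TRIM63 and CSRP3), and none in the other libraries. The authors kept only genes with 10 reads in 3 or more samples. TRIM63, TBX5 and CASQ2 had at most 6.62 normalized counts in any HA-IP, so only the Flag-IPs could bring them in. Their direction was thus fixed by that rule, and they count among the 34 and in the median. The part of these differences in the results on proteasome genes was not tested.

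The proteasome is a barrel with a cap. In the 20S core, rings of alpha subunits form the gate and rings of beta subunits hold the proteolytic sites, of which PSMB5, PSMB6 and PSMB7 are the catalytic members in most cells and PSMB8, PSMB9 and PSMB10 their interferon-induced replacements. The 19S particle sits on the core, where its non-ATPases bind and remove ubiquitin and its ring of ATPases unfolds the substrate and threads it in. The complex clears cyclins, CDT1 and geminin as the cell cycle proceeds, and its genes are induced together by NFE2L1 through antioxidant response elements when proteolysis is impaired.

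The 300 bases around a gene's start, 250 before it and 50 after it, were searched on both strands for TGACNNNGC, the core of the antioxidant response element. RefSeq (GRCh38.p14) windows were matched to 41 of the 47 genes, for 50 windows in all, and the match stood in 15 of 50 (30%) against 13.3% of the 35116 windows of all genes. The CHR core TTTGAA, found in genes that peak late in the cell cycle, stood in 14% against 15.2%, and CCAAT in 38% against 34.6%. Overlaps between matches of different motifs were allowed, and a match is a description of the letters only. Of the windows of genes that passed the test below, TGACNNNGC stood in 2 of 3 for genes higher in the HA-IPs, in 1 of 5 for genes higher in the Flag-IPs, and in 12 of 42 for genes that did not pass. The 5 windows came from 4 genes, since no window was matched to PSMA7 or PSMB7, both higher in the Flag-IPs. These motifs were kept after others had been looked at. Windows of 4 genes that passed are printed with the match in capitals, so that both directions and a window without the motif can be seen.
PSMD1 promoter, chr2:231056617-231056916, plus strand: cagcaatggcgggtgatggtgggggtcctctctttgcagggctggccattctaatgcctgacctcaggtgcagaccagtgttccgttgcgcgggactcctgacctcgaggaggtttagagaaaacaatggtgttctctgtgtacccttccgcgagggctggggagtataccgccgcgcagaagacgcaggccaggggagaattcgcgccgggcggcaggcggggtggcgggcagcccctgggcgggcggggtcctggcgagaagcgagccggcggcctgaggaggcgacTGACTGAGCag
PSME4 promoter, chr2:53970944-53971243, minus strand: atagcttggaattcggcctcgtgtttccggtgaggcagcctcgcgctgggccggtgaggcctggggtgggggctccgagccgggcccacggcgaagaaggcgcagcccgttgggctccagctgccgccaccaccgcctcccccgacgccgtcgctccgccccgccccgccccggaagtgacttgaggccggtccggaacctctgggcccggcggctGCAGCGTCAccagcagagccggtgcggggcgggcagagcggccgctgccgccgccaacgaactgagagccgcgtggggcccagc
PSMB3 promoter, chr17:38752491-38752790, plus strand: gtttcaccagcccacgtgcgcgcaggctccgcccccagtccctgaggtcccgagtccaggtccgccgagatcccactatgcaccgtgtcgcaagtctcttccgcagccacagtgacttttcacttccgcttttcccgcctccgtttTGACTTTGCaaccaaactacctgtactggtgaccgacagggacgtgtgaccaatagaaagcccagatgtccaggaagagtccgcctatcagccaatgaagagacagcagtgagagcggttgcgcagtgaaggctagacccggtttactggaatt
PSMA6 promoter, chr14:35292067-35292366, plus strand: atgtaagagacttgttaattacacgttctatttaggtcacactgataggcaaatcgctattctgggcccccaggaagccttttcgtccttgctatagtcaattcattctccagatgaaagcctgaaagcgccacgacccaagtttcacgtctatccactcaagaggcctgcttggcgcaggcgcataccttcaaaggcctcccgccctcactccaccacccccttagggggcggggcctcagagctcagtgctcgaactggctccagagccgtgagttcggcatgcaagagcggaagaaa
The windows of PSMD1 and PSME4, both higher in the HA-IPs, held the match, on opposite strands. The window of PSMB3, higher in the Flag-IPs, held it too, and that of PSMA6, also higher in the Flag-IPs, did not.

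Of the 47 genes, 9 differed between the IPs in limma (two-sided, adjusted p of at most 0.05 after Benjamini-Hochberg over all 16834 genes). Over all genes 12.9% did, 5.79% with a higher value in the HA-IPs and 7.1% with a higher value in the Flag-IPs. PSMC2, PSME4 and PSMD1 were higher in the HA-IPs. PSMA6, PSMA7, PSMB7, PSMB3, PSMB2 and PSMD10 were higher in the Flag-IPs, so that 5 of these 6 encode the 20S core. The changes were small, between -0.48 and 0.23 on the log2 scale, where a positive value means more in the HA-IPs and the scale is log2(normalized counts + 1). The log2 fold change was below 0 in 30 of the 47, with a median of -0.10 against -0.0049 over all genes. In 21 of the 47 genes there was no overlap between the groups, with the Flag-IPs above in 15 and the HA-IPs above in 6. Such a gap was found for 32.2% of the genes in the table, 16.1% in each direction. The median of the 47 depended on 1 library, since it was -0.015 without Flag-IP replicate 1, where 7 members passed and 11.9% of the genes in the table did. Without Flag-IP replicate 3, 16 members passed beside 18.2% of the table, and in limma without a variance trend 0 of 47 passed beside 1.12%, with 13 at an unadjusted p under 0.05 beside 23.1% of all genes. With libraries scaled to an equal total, 2 members were higher in the HA-IPs and 10 lower, and over all genes the split moved from 975 and 1196 to 471 and 1576.

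**Figure D1:**
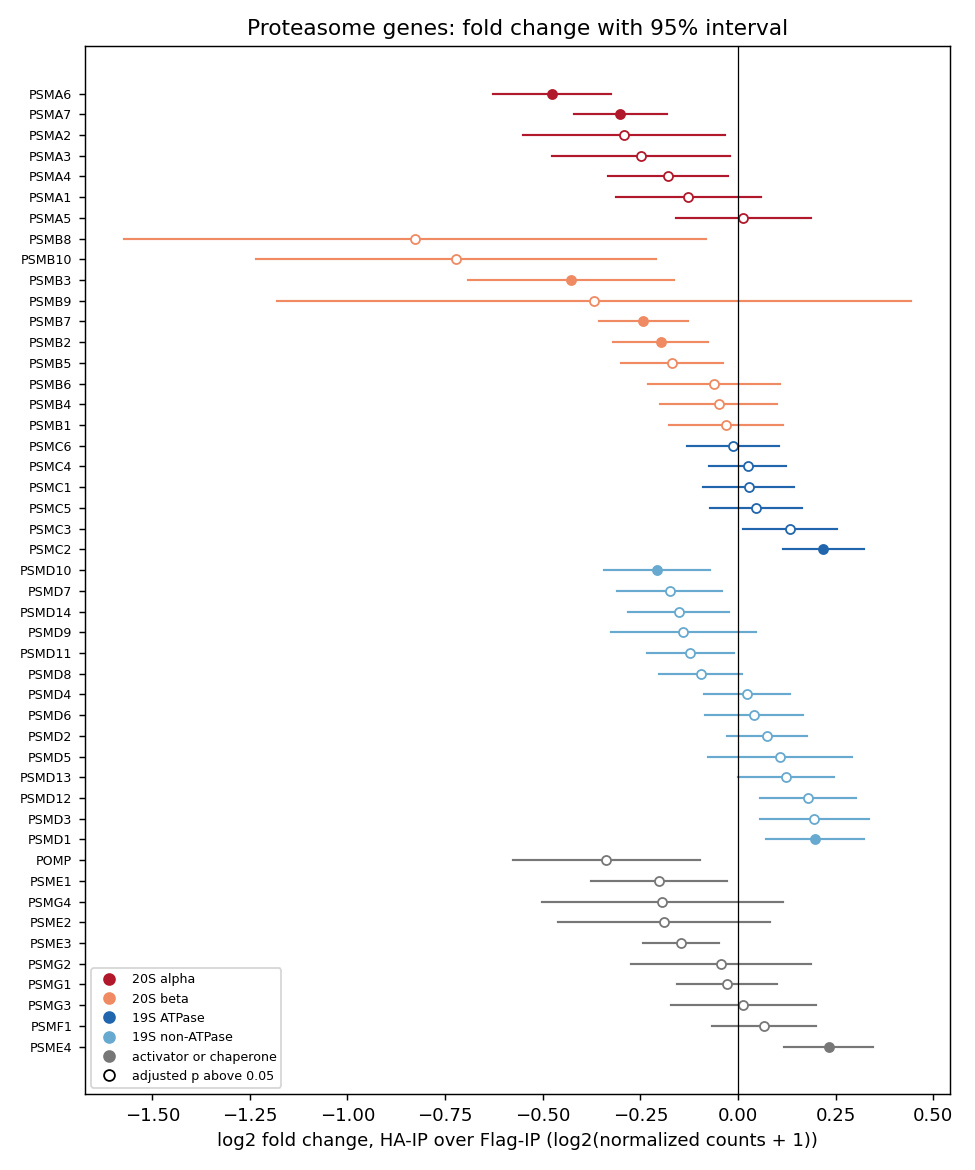
Log2 fold change (HA-IP over Flag-IP) for the 47 proteasome genes (points) with 95% intervals (lines), grouped by class and sorted within it. Filled points passed the test, and the 20S core lies left of 0 in 16 of 17 genes while the 19S ATPases lie right of it in 5 of 6. The 14 non-ATPases lie on both sides, 8 right of 0 and 6 left. Of all 16834 genes 8577 had a value below 0.

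The alpha rings of the core were lower in the HA-IPs for PSMA6 and PSMA7, and no PSMA gene was higher. PSMA6 (ENSG00000100902, chromosome 14, 35278633 to 35317493, plus strand, GRCh38 in GENCODE 44 as for the genes after it), a subunit of the gate, had 2553, 2214 and 2116 normalized counts for replicates 1, 2 and 3 of the Flag-IP, against 1637, 1633 and 1663 for those of the HA-IP. All Flag-IPs lay above all HA-IPs, and the 3 HA-IPs were nearly equal. Its log2 fold change was -0.48 (SE 0.069, adjusted p = 0.00187), a level in the HA-IPs of 0.719 of that in the Flag-IPs, and it passed the test with each library left out in turn. PSMA7 (ENSG00000101182, chromosome 20, 62136733 to 62143440, minus strand), another gate subunit, had 3340, 3316 and 3179 normalized counts in the Flag-IPs, against 2504, 2703 and 2780 in the HA-IPs. Its groups did not overlap either, and the log2 fold change of -0.30 (SE 0.0546, adjusted p = 0.00582) passed with each library left out. The other 5 did not pass. PSMA2, PSMA3, PSMA4 and PSMA1 had log2 fold changes of -0.29, -0.25, -0.18 and -0.13, and in each the groups overlapped. PSMA3 shows how 1 library entered these values, with 2552 normalized counts in Flag-IP replicate 1 and 1703 to 1948 in the other 5 libraries. PSMA5 was the 1 core gene above 0, with a log2 fold change of 0.01 (95% interval -0.16 to 0.19, adjusted p = 0.934), and it turned to -0.04 with an equal total in each library.

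Of the 10 beta subunits, PSMB7, PSMB3 and PSMB2 were higher in the Flag-IPs and none was higher in the HA-IPs. PSMB7 (ENSG00000136930, chromosome 9, 124353465 to 124415444, minus strand) encodes the subunit with trypsin-like activity and had 3136, 2987 and 2947 normalized counts in the Flag-IPs, against 2485, 2523 and 2661 in the HA-IPs. The groups were apart by more than the spread within either, at -0.24 (SE 0.052, adjusted p = 0.0124), but the gene passed in only 3 of the 6 fits with a library left out, failing without Flag-IP replicate 2, HA-IP replicate 1 or HA-IP replicate 2 (adjusted p = 0.060, 0.066 and 0.062 in limma). PSMB3 (ENSG00000277791, chromosome 17, 38752741 to 38764225, plus strand), a structural beta subunit, had 1891, 1387 and 1301 normalized counts in the Flag-IPs, against 1018, 1142 and 1207 in the HA-IPs. Flag-IP replicate 1 was far above the other 5 libraries, and the lowest Flag-IP was close to the highest HA-IP. The log2 fold change was -0.43 (SE 0.12, adjusted p = 0.0387). With 1 library left out it passed only without Flag-IP replicate 1 or Flag-IP replicate 3, at -0.26 without the former. The adjusted p was 0.060 to 0.165 in limma without any one of the other 4. PSMB2 (ENSG00000126067, chromosome 1, 35599541 to 35641526, minus strand), also structural, had 3418, 3117 and 3072 normalized counts in the Flag-IPs, against 2701, 2802 and 2863 in the HA-IPs, without overlap. Its log2 fold change was -0.20 (SE 0.0558, adjusted p = 0.0388). With 1 library left out it passed only without Flag-IP replicate 3 (adjusted p of 0.075 to 0.149 in limma without another library).

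The other catalytic subunits did not pass. PSMB5, with the chymotrypsin-like activity that proteasome inhibitors such as bortezomib block, had 3073, 2751 and 2731 normalized counts in the Flag-IPs, against 2441, 2516 and 2646 in the HA-IPs, and the groups did not overlap. Its log2 fold change was -0.17 (95% interval -0.30 to -0.04, adjusted p = 0.0907), and it passed with an equal total (-0.22, adjusted p = 0.038 in limma). PSMB6, with the caspase-like activity, had 1631, 1504 and 1435 normalized counts in the Flag-IPs, against 1309, 1495 and 1582 in the HA-IPs. Its groups overlapped, and the log2 fold change was -0.06 (95% interval -0.23 to 0.11, adjusted p = 0.671). PSMB4 and PSMB1, the remaining structural subunits, had log2 fold changes of -0.05 and -0.03 with overlapping groups.

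The interferon-induced subunits were barely present. The read ranges given for them cover the 5 libraries with recovered reads and leave out HA-IP replicate 2. PSMB9 and PSMB10 had their lowest normalized counts in that replicate. PSMB8 had 31.2, 21.3 and 45.2 normalized counts in the Flag-IPs, against 15.5, 20.8 and 15.4 in the HA-IPs, from 14 to 49 recovered reads in a library. PSMB10 had 72.7, 58.5 and 53.5 normalized counts in the Flag-IPs, against 33.2, 32.7 and 45.2 in the HA-IPs, from 41 to 58 reads. Both had all Flag-IPs above all HA-IPs, with log2 fold changes of -0.83 (95% interval -1.57 to -0.08, adjusted p = 0.14) and -0.72 (95% interval -1.23 to -0.21, adjusted p = 0.0657), respectively, and neither passed. PSMB9 had 22.1, 24.5 and 20.3 normalized counts in the Flag-IPs, against 23.3, 9.90 and 21.0 in the HA-IPs, from 17 to 33 reads, and the groups overlapped at -0.37 (95% interval -1.18 to 0.44, adjusted p = 0.575). Per kilobase of transcript, the sum of the 3 came to 1.53%, 1.37% and 1.56% of the sum of PSMB5, PSMB6 and PSMB7 in the Flag-IPs and to 1.10%, 0.909% and 1.13% in the HA-IPs. The share was higher in every Flag-IP than in every HA-IP. An exact permutation test of 3 against 3 libraries cannot go below 0.1, and none was run on this ratio. Differences of this size rest on few reads, and at this depth a change in PSMB9 of less than its interval could not be seen. PSMB10 shares 56.1% of its exon bases with the overlapping gene ENSG00000261884 on the same strand, so that its reads may be split.

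In the ATPase ring of the 19S particle PSMC2 was higher in the HA-IPs, and the other 5 genes did not pass. PSMC2 (ENSG00000161057, chromosome 7, 103328570 to 103370346, plus strand), one of the ATPases that unfold the substrate, had 4756, 4672 and 4749 normalized counts in the Flag-IPs, against 5356, 5397 and 5746 in the HA-IPs. The 3 Flag-IPs were nearly equal and all HA-IPs lay above them. The log2 fold change was 0.22 (SE 0.0473, adjusted p = 0.013), a level 1.16 times that in the Flag-IPs. With 1 library left out it failed only without Flag-IP replicate 2 (adjusted p = 0.078 in limma) or HA-IP replicate 3 (adjusted p = 0.063 in limma). PSMC3 was the only other ATPase whose groups did not overlap, at 0.13 (95% interval 0.01 to 0.25, adjusted p = 0.138). PSMC4, PSMC1, PSMC5 and PSMC6 lay between -0.01 and 0.05 with overlapping groups, and the 95% interval of PSMC4 ran from -0.07 to 0.12. For PSMC1, 83.2% of exon bases overlap NRDE2 on the opposite strand, and for PSMC5 13.7% overlap FTSJ3. The strand setting of the counting is not given in the sources used here, so reads of such pairs may have been lost or shared.

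The non-ATPases went both ways. PSMD1 (ENSG00000173692, chromosome 2, 231056845 to 231173116, plus strand), one of the large scaffold subunits at the base of the particle, had 12718, 12992 and 14481 normalized counts in the Flag-IPs, against 14724, 15335 and 15978 in the HA-IPs. All HA-IPs lay above all Flag-IPs, although Flag-IP replicate 3 and HA-IP replicate 1 were close. Its log2 fold change was 0.20 (SE 0.0578, adjusted p = 0.0449). With 1 library left out it passed only without Flag-IP replicate 3, with adjusted p of 0.082 to 0.186 in limma without another library. It did not pass under quantile normalization (0.10, adjusted p = 0.188 in limma) or with an equal total (0.14, adjusted p = 0.081 in limma). PSMD10 (ENSG00000101843, chromosome X, 108084207 to 108091549, minus strand), or gankyrin, is an assembly chaperone that leaves before the particle is complete, and it had 2386, 2410 and 2116 normalized counts in the Flag-IPs, against 2067, 1937 and 1973 in the HA-IPs. Its log2 fold change was -0.21 (SE 0.0621, adjusted p = 0.049). With 1 library left out it passed only without Flag-IP replicate 3, with adjusted p of 0.081 to 0.203 in limma without another library. The 1 PSMD gene that passed with more in the Flag-IPs thus encodes no subunit of the mature particle. However, the subunit genes PSMD7, PSMD14, PSMD11 and PSMD8 also had all Flag-IPs above all HA-IPs, at -0.17 to -0.10, without passing. In 3 PSMD genes all HA-IPs lay above all Flag-IPs.

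Among the other 12 PSMD genes none passed in limma, with 6 of the 14 PSMD genes below 0 and 8 above. PSMD14, the deubiquitinase that removes ubiquitin chains at the pore, had 3495, 3121 and 3059 normalized counts in the Flag-IPs, against 2986, 2824 and 2886 in the HA-IPs. The Flag-IPs were all higher, at -0.15 (95% interval -0.28 to -0.02, adjusted p = 0.121). Its partner PSMD7 had -0.17 (95% interval -0.31 to -0.04, adjusted p = 0.0864), also without overlap. Reads of PSMD7 may be shared, since 51.6% of its exon bases overlap the noncoding gene ENSG00000259972 on the opposite strand. PSMD4, a ubiquitin receptor, had 0.02 (95% interval -0.09 to 0.13, adjusted p = 0.82) with overlapping groups. The lid subunits PSMD3 and PSMD12 had all HA-IPs above all Flag-IPs, at 0.20 (95% interval 0.06 to 0.34, adjusted p = 0.0681) and 0.18 (95% interval 0.06 to 0.30, adjusted p = 0.0569), respectively. The lid subunits PSMD11 and PSMD8 had log2 fold changes of -0.12 and -0.10, with all Flag-IPs above. PSMD2, the other large scaffold subunit, PSMD6 and PSMD13 had values of 0.07, 0.04 and 0.12 with overlapping groups. The assembly chaperones PSMD5 and PSMD9 were the rarest mRNAs of the class and had log2 fold changes of 0.11 and -0.14, with overlap.

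Of the activators, which open the core without ubiquitin, PSME4 was higher in the HA-IPs. PSME4 (ENSG00000068878, chromosome 2, 53864069 to 53970993, minus strand), the nuclear activator PA200, had 9836, 9484 and 10638 normalized counts in the Flag-IPs, against 12009, 11445 and 11707 in the HA-IPs. All HA-IPs lay above all Flag-IPs. The log2 fold change was 0.23 (SE 0.0522, adjusted p = 0.015). With 1 library left out it passed only without Flag-IP replicate 1 or Flag-IP replicate 3. The adjusted p was 0.054 to 0.097 in limma without any one of the others. PSME3, the nuclear activator PA28 gamma, had 7156, 7046 and 6799 normalized counts in the Flag-IPs, against 6302, 6342 and 6320 in the HA-IPs. All Flag-IPs lay above all HA-IPs, but the gene missed the threshold, at -0.15 (95% interval -0.24 to -0.05, adjusted p = 0.0507). It passed under 6 alternatives, among them an equal total (-0.20, adjusted p = 0.016 in limma) and a pseudocount of 10 (-0.15, adjusted p = 0.049 in limma). PSME1 and PSME2, the interferon-induced cytoplasmic pair, had log2 fold changes of -0.20 (SE 0.0792, adjusted p = 0.124) and -0.19 (SE 0.124, adjusted p = 0.368), with overlapping groups. PSMF1, which binds the core and inhibits it in vitro, had 0.07 (95% interval -0.07 to 0.20, adjusted p = 0.526).

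The core's own assembly factors did not pass. POMP, which is degraded as the first substrate of the core it matures, had 1148, 842 and 875 normalized counts in the Flag-IPs, against 704, 732 and 813 in the HA-IPs. The Flag-IPs were all above the HA-IPs, with Flag-IP replicate 1 far above the rest, and the log2 fold change was -0.34 (95% interval -0.58 to -0.10, adjusted p = 0.0659). Without Flag-IP replicate 1 it was -0.20, and it passed without Flag-IP replicate 3 (-0.39, adjusted p = 0.040 in limma) and with an equal total (-0.39, adjusted p = 0.042 in limma). PSMG1, PSMG2, PSMG3 and PSMG4, which guide the alpha ring, had values of -0.03, -0.04, 0.01 and -0.19, and the groups of all 4 overlapped.

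Set side by side, 5 of 17 core genes were higher in the Flag-IPs and none in the HA-IPs. Of the 20 PSMC and PSMD genes classed as the 19S particle, 1 was higher in the Flag-IPs, the assembly chaperone PSMD10, and 2 in the HA-IPs. The same counts over all genes were 7.1% and 5.79%. Without HA-IP replicate 2, 2 core genes passed in limma, 2 in edgeR and 4 in DESeq2, beside 5.35%, 5.27% and 8.43% of all genes, respectively. In the comparison of all 6 libraries 11 of the 17 had an unadjusted p under 0.05 in limma, beside 27.2% of all genes. The median log2 fold change was -0.24 in the core, -0.19 in the core without PSMB8, PSMB9 and PSMB10, and 0.03 in the 19S particle. The median of the 19S particle turned to -0.01 under quantile normalization, to -0.02 with the same total in each library and to -0.0023 without HA-IP replicate 3. The median of the core stayed below 0 under every alternative run and was -0.15 without Flag-IP replicate 1, where 4 core genes were higher in the Flag-IPs. Of the core without PSMB8, PSMB9 and PSMB10, the median was then -0.11. The difference between the classes was not tested, since members are not replicates.

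The mean of the core genes, each centred on its own mean over the 6 libraries, was 0.28, 0.08 and 0.06 in Flag-IP replicates 1, 2 and 3 and -0.15, -0.19 and -0.08 in the HA-IPs. For the 19S particle these means were 0.02, -0.01 and -0.04 in the Flag-IPs, against -0.0065, -0.0055 and 0.05 in the HA-IPs. The core minus the 19S particle was thus above 0 in every Flag-IP (0.26, 0.09 and 0.10) and below 0 in every HA-IP (-0.14, -0.18 and -0.13). These core means include the barely present PSMB8, PSMB9 and PSMB10, and PSMB8 was highest in Flag-IP replicate 3, at 45.2 normalized counts. In that library the mean was -0.01 for the PSMA genes and 0.11 for the PSMB genes. The means without PSMB8, PSMB9 and PSMB10 were not taken. Flag-IP replicate 1, the library with the largest share of heart muscle genes and the fewest recovered reads, was also the highest library for 14 of the 17 core genes and 26 of the 47. HA-IP replicate 3 was the highest for 11 of the 20 genes of the 19S particle. The same counts over all genes were not taken, so none of these counts can be read as a trait of the proteasome genes. Together the 47 genes made up 0.597%, 0.580% and 0.569% of each Flag-IP and 0.564%, 0.563% and 0.578% of each HA-IP, and these shares of normalized counts overlapped.

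**Figure D2:**
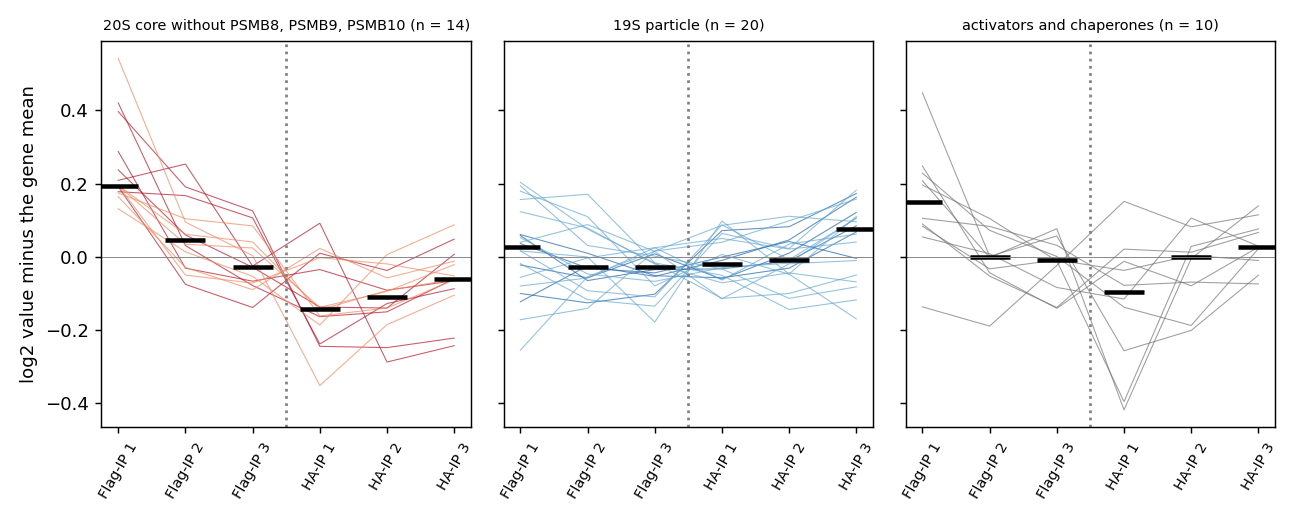
Log2(normalized counts + 1) of each gene minus its mean over the 6 libraries, with 1 line per gene and black bars for the median of the genes, in the order of the replicate labels, which carries no time or dose. In the left panel (red for alpha, orange for beta) the genes lie highest in Flag-IP replicate 1 and low in the HA-IPs, in the middle panel (dark blue for ATPases, light blue for non-ATPases) they lie closer to 0, and in the right panel HA-IP replicate 1 is lowest.

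The 2 sets of genes that passed also differed in size. The coding length was 1299, 2859 and 5529 nucleotides for PSMC2, PSMD1 and PSME4, and 603 to 831 nucleotides for the 6 genes higher in the Flag-IPs. The core genes as a class spanned 603 to 831 nucleotides and the 19S genes 669 to 2859, so class and size cannot be told apart for most members. Across the 47 genes Spearman's rank correlation between the log2 fold change and the coding length was 0.713, and across all 13859 protein-coding genes tested it was 0.375. These are descriptions across genes, which share the same 6 libraries and are not independent.

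Protein-coding genes at large showed these directions too. Of the 4163 protein-coding genes under 1000 nucleotides of coding length, 12.9% were higher in the Flag-IPs and 1.39% in the HA-IPs, with a median log2 fold change of -0.11. The 30 proteasome genes under that length had a median of -0.18, with 6 higher in the Flag-IPs and 0 in the HA-IPs (in limma, as above). Of the 9696 genes of at least 1000 nucleotides, 4.41% were higher in the Flag-IPs and 9.31% in the HA-IPs, with a median of 0.05. The 17 proteasome genes of that length had a median of 0.07, with 3 higher in the HA-IPs. After the trends with GC content and coding length had been removed from each library, over protein-coding genes only, 8 of the 47 passed, where 13.4% of all genes did. PSMA6, PSMA7 and PSMB7 were still higher in the Flag-IPs, and PSMC2 was still higher in the HA-IPs. PSMC3, PSMD3, PSMD12 and PSMG3, which had not passed before, were then higher in the HA-IPs, and PSMB3, PSMB2, PSMD10, PSMD1 and PSME4 no longer passed. The median of the 47 moved from -0.10 to 0.0051, that of the core from -0.24 to -0.17, that of the core without PSMB8, PSMB9 and PSMB10 from -0.19 to -0.10, and that of the 19S particle stayed at 0.03. With the trends of GC content and transcript length removed instead, 13 of the 47 passed beside 14.5% of all genes, and 8 of the 13 had more in the HA-IPs. PSMB7, at -0.09 (adjusted p = 0.194 in limma), was not among them.

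**Figure D3:**
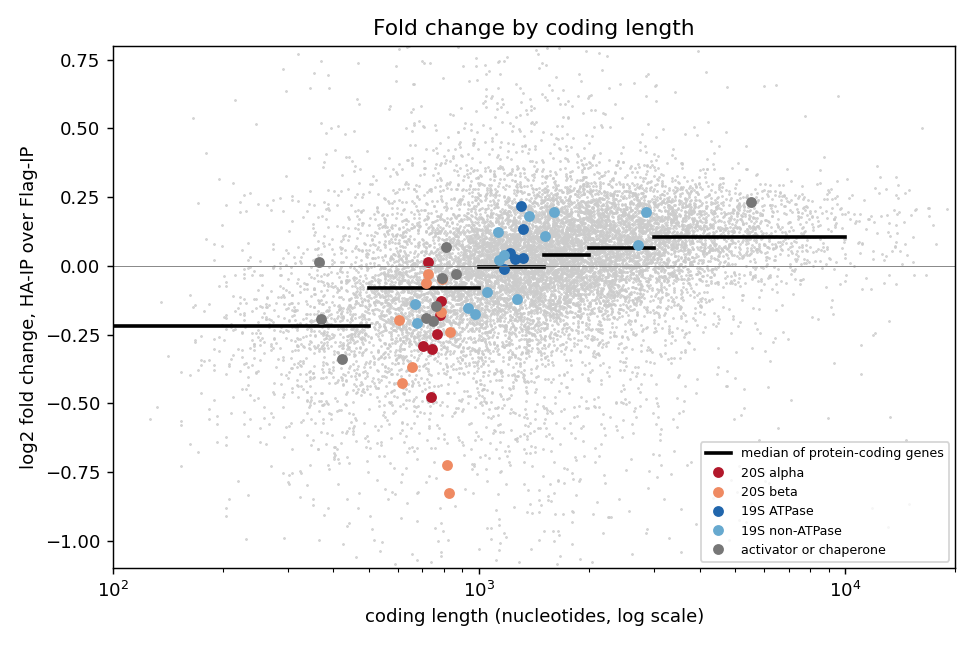
Log2 fold change against coding length (log scale) for protein-coding genes (grey; points beyond the axes are not drawn), their median in 6 length ranges (black) and the 47 proteasome genes (coloured by class). The black medians rise from -0.22 up to 500 nucleotides to 0.10 above 3000, and the core genes lie in the range of 501 to 1000 nucleotides, whose median is -0.08.

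Levels per kilobase of transcript, averaged over the 6 libraries, spread widely within a complex whose subunits are used in equal numbers. In the core without its interferon-induced members they ran from 290 normalized counts per kilobase for PSMA2 to 3246 for PSMB4. The low end carries a limit, as all exon bases of PSMA2 are shared with a readthrough gene on the same strand, and reads on shared bases may not have been counted. The like holds for 67% of the exon bases of PSMA1, 81.4% of PSMA6 and 28.8% of PSMD9. The readthrough gene over PSMA6, ENSG00000258790, had 10.6 to 26.1 normalized counts, against 1633 to 2553 for PSMA6. In the 19S particle the levels ran from 167 for the chaperone PSMD5 to 6716 for PSMD2, and the ATPases from 934 for PSMC1 to 5709 for PSMC5. PSME3 was the highest activator at 2093, and PSMG4 was the lowest of POMP and the PSMG genes at 279. PSMB8, PSMB9 and PSMB10 lay at 22.1, 19.8 and 50.5. All these levels also depend on the length of the canonical transcript, and which transcripts the cells used was not tested. That length was 4390 nucleotides for PSMC1 and 1331 for PSMC5, although their coding lengths were 1320 and 1218. Before division by length, PSMC1 ranged from 3917 to 4346 over the 6 libraries and PSMC5 from 7278 to 8257. The range given for the ATPases thus rests in part on transcript length.

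**Figure D4:**
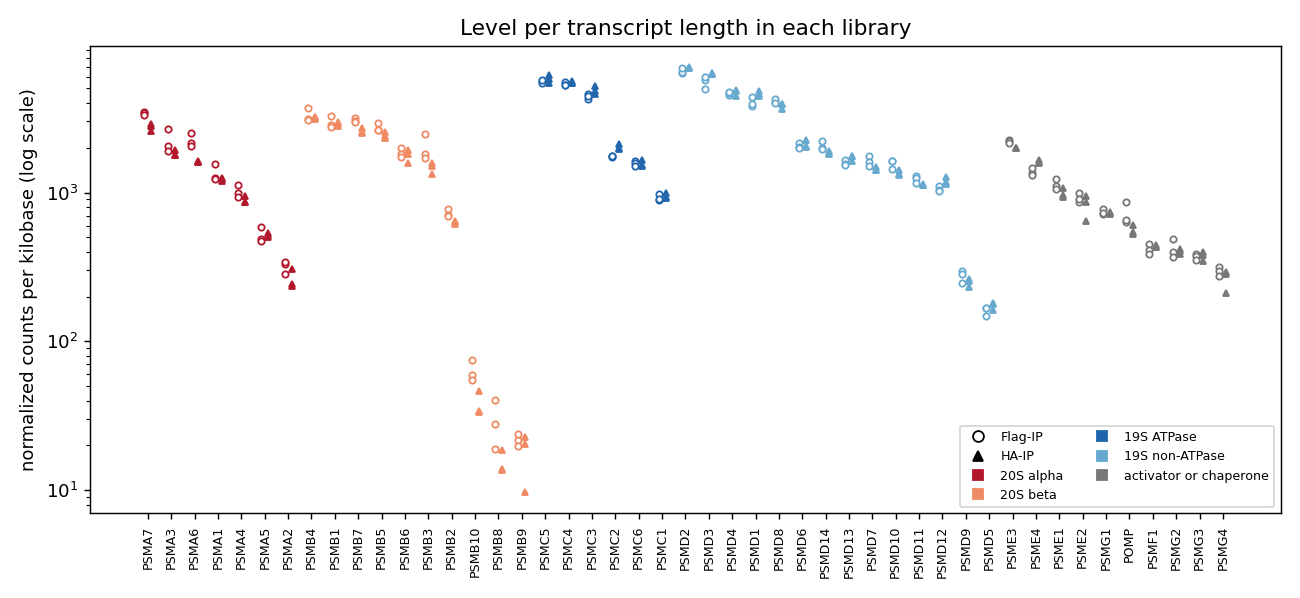
Normalized counts per kilobase of transcript (log scale) of each proteasome gene in each Flag-IP (open circles) and HA-IP (filled triangles), by class and from the highest to the lowest gene. The 3 interferon-induced beta subunits lie below 100, under every other gene, and for most genes the symbols of the 2 IPs lie close together on this scale.

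Genes that work with the proteasome were taken as lists, written with earlier results of these data known. Of the 14 proteins that bind the proteasome, 2 had a higher value in the HA-IPs and 2 a lower one, beside 5.79% and 7.1% of all genes. USP14, a deubiquitinase docked on the 19S particle, had 7582, 7403 and 7684 normalized counts in the Flag-IPs, against 9249, 8373 and 8724 in the HA-IPs, without overlap (log2 fold change 0.22, SE 0.0496, adjusted p = 0.017 in limma). UCHL5, the other docked deubiquitinase, had 1832, 1582 and 1432 in the Flag-IPs, against 1219, 1238 and 1244 in the HA-IPs, likewise without overlap but in the other direction (-0.38, SE 0.0808, adjusted p = 0.012 in limma). ECPAS, a scaffold that clamps core and cap together, was higher in the HA-IPs (0.26, adjusted p = 0.014 in limma), and ZFAND5, which stimulates the 26S proteasome, was higher in the Flag-IPs (-0.35, adjusted p = 0.015 in limma). ADRM1, the ubiquitin receptor that recruits UCHL5, and SEM1, the smallest 19S subunit, did not pass (0.06 and -0.21, adjusted p = 0.449 and 0.420 in limma).

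Of 11 listed ubiquitin-activating and shuttle factors, 4 had a higher value in the HA-IPs and 0 a lower one in limma, beside 5.79% and 7.1% of all genes. The coding lengths of the 4 were 1767 to 3174 nucleotides. Of protein-coding genes of at least 1000 nucleotides, 9.31% were higher in the HA-IPs. With the trends of GC content and coding length removed, 3 of the 11 passed, and the median of the list moved from 0.14 to 0.10. Of the 11, 7 had an unadjusted p under 0.05 in limma, beside 27.2% of all genes. VCP, the unfoldase that hands substrates to the proteasome, had 28867, 29077 and 32101 normalized counts in the Flag-IPs, against 38484, 37574 and 38948 in the HA-IPs. The groups were well apart, and the log2 fold change of 0.35 (SE 0.0535, adjusted p = 0.0023 in limma) passed with each library left out. UBA1, the main ubiquitin-activating enzyme, was at 0.23 (adjusted p = 0.019 in limma). UBA6 and UBQLN1, named after their values were seen, were at 0.24 and 0.16 (adjusted p = 0.020 and 0.042 in limma). UBA6 missed the threshold without Flag-IP replicate 2, HA-IP replicate 1 or HA-IP replicate 3 (adjusted p of 0.082 to 0.113 in limma). With 1 library left out UBQLN1 passed only without Flag-IP replicate 3, and was at adjusted p of 0.064 to 0.178 in limma without any one of the others. UBQLN1 did not pass after removal of the trends with GC content and coding length (0.12, adjusted p = 0.067 in limma). Of the 6 regulators of proteasome genes 0 passed in limma, edgeR or DESeq2, and 1 had an unadjusted p under 0.05 in limma. NFE2L1, the factor named above, had a log2 fold change of -0.10 (adjusted p = 0.264 in limma), and it passed under quantile normalization at -0.18 (adjusted p = 0.029 in limma) and after removal of the trends with GC content and coding length at -0.14 (adjusted p = 0.042 in limma). USP14, UCHL5, ECPAS, ZFAND5 and UBA1 each missed the threshold without 2 to 4 of the libraries Flag-IP replicate 2 and HA-IP replicates 1, 2 and 3, at adjusted p of 0.053 to 0.103 in limma.

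A pseudogene changed where its parent did not pass. PSMC1P1 (ENSG00000241506, chromosome 3, 68635705 to 68637024) is a processed copy of PSMC1 and was the 1 pseudogene of a member whose mean reached 50 normalized counts. It had 261, 178 and 122 normalized counts in the Flag-IPs, against 60.7, 75.3 and 55.1 in the HA-IPs. The groups did not overlap, the log2 fold change was -1.48 (SE 0.247, adjusted p = 0.0039 in limma), and it passed with each library left out. PSMC1 itself had a log2 fold change of 0.03 (95% interval -0.09 to 0.14, adjusted p = 0.794). Reads of a near-identical copy can be assigned to either gene, so the level of PSMC1P1 is uncertain.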

How the data were processed

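RNA from 3 Flag-IPs and 3 HA-IPs was selected for poly(A) tails and sequenced in paired reads of 150 bp. The authors used Trimmomatic 0.36 for trimming and STAR 2.5.2b for mapping to GRCh38, counted reads per gene with featureCounts (Subread 1.5.2), dropped genes that did not reach 10 reads in 3 or more samples, and normalized in DESeq2. The deposited values are this normalized signal per library, reads divided by a size factor. The authors' own fold changes and adjusted p-values in the same table were not used. Groups came from the sample titles.

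For all 16834 genes, log2(normalized counts + 1) was compared between the groups with limma 3.58.1 in R 4.3.3, letting the variance follow the mean (limma-trend). Tests were two-sided, and genes passed when p adjusted by Benjamini-Hochberg over the table was at most 0.05. The log2 scale understates changes of rare genes. Whole reads were recovered in 5 libraries, where 100% of values were whole multiples of 1 read within 0.01 of a read, and edgeR 4.0.16 (TMM) and DESeq2 1.42.0 were run on them. In HA-IP replicate 2, 1 read is worth so close to 1 normalized count that recovery was not used. At these depths the spread between 3 replicates limits precision for all but the rarest genes, and read ranges cover counting error only.

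Lengths, coordinates and overlaps were read from canonical transcripts in GENCODE 44 (GRCh38), which matched 99.1% of identifiers. Trends with GC content and length were fitted per library with splines of 5 degrees of freedom (MASS 7.3.60.0.1). Summaries and plots used Python 3.11.15, pandas 2.3.3 and matplotlib 3.10.9. The fits and the recovery of reads were tested on simulated data.

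The members and all gene lists were chosen with earlier results of these data known. Genes named by rule are members that passed, the highest and lowest of each class, members fixed by function, the 8 pathway genes with the smallest adjusted p together with ADRM1, SEM1 and NFE2L1, and pseudogenes with a mean of at least 50. Further members were named to account for the class. Some pathway genes are not reported here. The 3 promoter motifs were kept after others had been looked at. Alternatives were pseudocounts of 0.1 and 10, a minimum mean of 50, 3 other scalings, no variance trend, a block for the replicate number, omission of each library in turn, an adjusted p of at most 0.01, and removal of trends with GC content and transcript length. Removal of the trend with coding length and the count tests on 5 libraries were chosen after seeing the data.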

Additional observations from a re-analysis of the deposited data

How the results depend on the processing

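The number of proteasome genes that passed was 9 and stayed at 6 to 13 under the other pseudocounts, minimum mean, scalings, replicate block, DESeq2 and both removals of trends. It was 0 in limma without the trend of the variance, where 188 of all genes passed. There 13 members had an unadjusted p under 0.05, beside 23.1% of all genes. The number was 3 in edgeR and 2 at an adjusted p of at most 0.01. With 1 library left out it ran from 2 (without Flag-IP replicate 2, where 620 of all 16834 genes passed) to 16 (without Flag-IP replicate 3, where 3059 did). It was 3 without HA-IP replicate 1, 2 or 3, where 780, 900 and 1216 of all genes passed, respectively. Over all genes 2171 passed in limma, 887 in edgeR and 1419 in DESeq2 (both without HA-IP replicate 2), 704 at an adjusted p of at most 0.01, and 620 to 3059 with 1 library left out. The median of the 47 genes ran from -0.12 to -0.015 with 1 library left out, and was -0.0036 after removal of trends with GC content and transcript length and 0.0051 with GC content and coding length. That of the core ran from -0.26 to -0.15 with 1 library left out and was -0.15 after removal of the trends with transcript length. The causes of these shifts were not tested. The labels do not say whether replicate numbers pair the samples. The deviations of same-numbered libraries from their group mean correlated at -0.16, 0.03 and -0.31. These values cannot settle it, since the deviations within an IP sum to 0 for each gene. With the replicate number as a block 6 members passed, 3 in each direction, and 1662 of all genes. Over the 36 named genes and their alternatives, 541 of 680 comparisons kept direction and side of the threshold, 109 fell below it, 11 rose above it and 19 changed sign. The 19 came from 6 genes, of which 0 passed in limma with all 6 libraries, and none of the 19 passed (the lowest adjusted p was 0.101 in limma). With an equal total PSMA5 was at -0.039 and PSMD4 at -0.030, and under quantile normalization PSMD4 was at -0.041. With the trends of GC content and transcript length removed PSMB1, PSMB6, PSMC6 and SEM1 were at 0.14, 0.12, 0.029 and 0.029, and with those of GC content and coding length at 0.061, 0.055, 0.0083 and 0.065. With 1 library left out PSMA5 ran from -0.051 to 0.11, PSMB1 from -0.083 to 0.044, PSMB6 from -0.12 to 0.016, PSMC6 from -0.050 to 0.014 and PSMD4 from -0.0029 to 0.060. edgeR and DESeq2 on all 6 libraries were planned and not run.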
